A study of Homo sapiens with 9 samples.

Results

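The 35 genes described here are known transcriptional targets of the tumour suppressor p53, taken by name for their roles in p53 feedback, cell cycle arrest, apoptosis, DNA repair and metabolism. Each of the 35 symbols matched exactly 1 Ensembl gene ID among the 41857 IDs of each library, and each reached the level required for testing, 10 in 3 or more libraries. RNA had been measured in MCF10A, a human mammary epithelial cell line that is not tumorigenic. The lines expressed human deltaNp63beta, human deltaNp63alpha or, as control, the vector alone, with 3 biological replicates of each. The cultures of every line, vector included, had received 500 ng/mL doxycycline for 24 h to induce expression, and the genotype of every library is labelled WT. The labels name no DNA-damaging agent, and the sources used here do not say whether a line is a clone or a pool of cells.

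The transcription factor p53 binds a response element made of paired short units and switches on genes that halt division, repair DNA, change metabolism or kill the cell. The related factor p63 binds elements of the same kind and is the main member of the family in basal epithelial cells such as those of breast and skin. The deltaN forms of p63 lack the N-terminal transactivation domain, and the alpha and beta isoforms share the DNA-binding domain but end in different C-terminal parts. In epithelial cells deltaNp63 is known as a competitor of p53 at some of these elements and as an activator at others.

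Promoter windows of 250 bases before to 50 bases after an annotated start (RefSeq, GRCh38.p14) were at hand for 30 of the 35 genes. They were searched on both strands for the 20-base p53 response element consensus without a spacer, keeping its 4 fixed C and G positions and allowing up to 3 mismatches elsewhere. A match was found for 9 of the 30 genes (30.0%), against 373 of the 27305 genes of the whole table (1.37%). The 9 matches are printed because they are the p53-family sequences that lie next to these genes' own start sites. Capitals mark the matched 20 bases and small letters up to 5 flanking bases, 5′ to 3′ on the strand of the gene.
MDM2: gagctGGTCAAGTTCAGACACGTTCcgaaa
PMAIP1: gtcggGAGCGTGTCCGGGCAGGTCGcgctc
FAS: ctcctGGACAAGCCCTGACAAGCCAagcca
FDXR: ggcccGGGCAGGAGCGGGCTTGCCCtgcgg
SESN1: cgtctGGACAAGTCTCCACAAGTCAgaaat
GDF15: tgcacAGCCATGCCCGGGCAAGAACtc
DDB2: gctccAAGCTGGTTTGAACAAGCCCtgggc
AEN: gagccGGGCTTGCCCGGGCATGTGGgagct
RPS27L: aggagGGCCTAGAGCAGACAAGCCCgcccc
The capitals lie at chr12:68808923-68808942 for MDM2 and chr18:59899811-59899830 for PMAIP1. Those of FAS lie at chr10:88991309-88991328 and those of FDXR, on the minus strand, at chr17:74872996-74873015. They lie at chr6:109009018-109009037 on the minus strand for SESN1, at chr19:18386186-18386205 for GDF15 and at chr11:47214969-47214988 for DDB2. AEN has its match at chr15:88621306-88621325 and RPS27L, on the minus strand, at chr15:63157527-63157546. The match of DDB2 has 1 mismatch to the consensus, those of MDM2, FAS and AEN have 2, and the other 5 have 3. The MDM2 and SESN1 matches are intronic in the annotated transcripts, that of PMAIP1 lies upstream of every annotated transcript, and 6 lie in an exon of at least 1 transcript. A match is a stretch of letters, and binding at it was not measured.

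The 9 libraries held normalized estimated counts summing to between 22.483 and 23.214 M, from an estimated depth before normalization of 20.316 to 24.353 M. TP63 RNA, which holds the transgene, was 6719, 4183 and 4870 in the deltaNp63beta libraries, 4426, 6983 and 6961 in the deltaNp63alpha libraries and 316, 332 and 259 in the vector libraries. Every transgene library thus lay above every vector library, while the libraries of the isoforms overlapped. Basal epithelial markers summed to between 350110 and 361525 with deltaNp63beta, between 260989 and 272089 with deltaNp63alpha and between 182671 and 188907 with vector. Of these 9 markers, 7 rose and 1 fell with deltaNp63beta, and 8 rose with deltaNp63alpha. The sum of 8 fibroblast markers was 12419 to 13488, 7758 to 7870 and 10572 to 10910 in the same order of groups, most of it FBLN1, which changed by a log2 fold of 0.43 with deltaNp63beta and -0.35 with deltaNp63alpha. DCN changed by a log2 fold of -2.87 and -1.79 in the same comparisons, against a vector mean of 1211, while COL1A2 reached at most 13.4 and COL3A1 3.08. Of the 5 fibroblast markers tested, 2 rose and 1 fell with deltaNp63beta, and 2 fell with deltaNp63alpha. The 8 leukocyte markers summed to 1242 to 1369, 1281 to 1642 and 1871 to 2087, with PTPRC at most 4.22. All 5 leukocyte markers tested were called with deltaNp63beta (log2 fold changes in brackets), CD14 (2.77) and LAPTM5 (0.96) higher and ITGB2 (-1.87), CSF1R (-0.91) and CD68 (-0.86) lower, and ITGB2 (-0.93) and CD68 (-0.40) were lower with deltaNp63alpha. The 6 endothelial markers summed to 110.3 to 142.7, 171.0 to 173.7 and 203.7 to 276.0, with CDH5 at most 1.84, and of the 3 tested 3 fell with deltaNp63beta and 1 with deltaNp63alpha. The part of these differences in the results was not tested, and in these bulk libraries fewer cells of a kind and less RNA per cell cannot be told apart.

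The p53 target genes moved in both directions with each isoform. With deltaNp63beta, 15 of the 35 were higher than with vector and 9 lower at an adjusted p under 0.05, so 68.6% were called, against 41.3% of all 15108 genes tested (21.8% higher and 19.5% lower). With deltaNp63alpha, 9 were higher than with vector and 5 lower, so 40.0% were called, against 14.5% of all genes (8.13% higher and 6.37% lower). Among the 10208 tested genes within the members' range of levels, 49.3% were called with deltaNp63beta (26.8% higher and 22.5% lower) and 18.2% with deltaNp63alpha (10.3% higher and 7.93% lower). The members' median change was 0.10 with deltaNp63beta and 0.07 with deltaNp63alpha on the log2(value + 1) scale, against -0.00 and -0.01 over all genes. Most changes were small: 3 members rose at least 2-fold with deltaNp63beta (PMAIP1, BTG2 and SFN), 1 with deltaNp63alpha (SFN), and the largest called fall was -0.81 with deltaNp63beta (EDA2R) and -0.99 with deltaNp63alpha (TP53I3). Both comparisons use the same 3 vector libraries. Changes throughout are log2 fold changes ± SE from limma on log2(value + 1), p-values are adjusted over all 15108 genes, and levels are normalized estimated counts given as mean ± SD of n = 3 libraries or for replicates 1, 2 and 3.

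**Figure D1:**
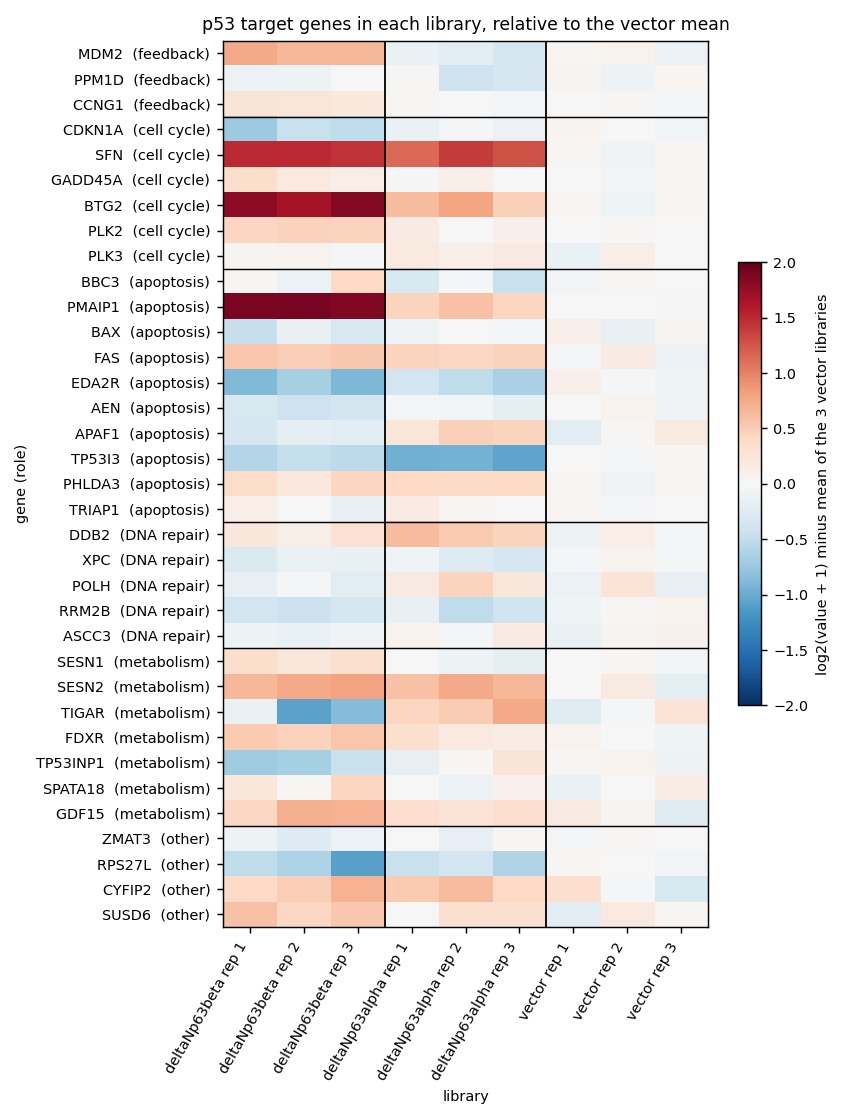
Each row is 1 of the 35 p53 target genes, grouped by role, and each column 1 library. Colour gives log2(value + 1) minus the mean of the 3 vector libraries. The SFN, BTG2 and PMAIP1 rows are darkest red in the deltaNp63beta libraries, and TP53I3 is darkest blue in the deltaNp63alpha libraries.

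**Figure D2:**
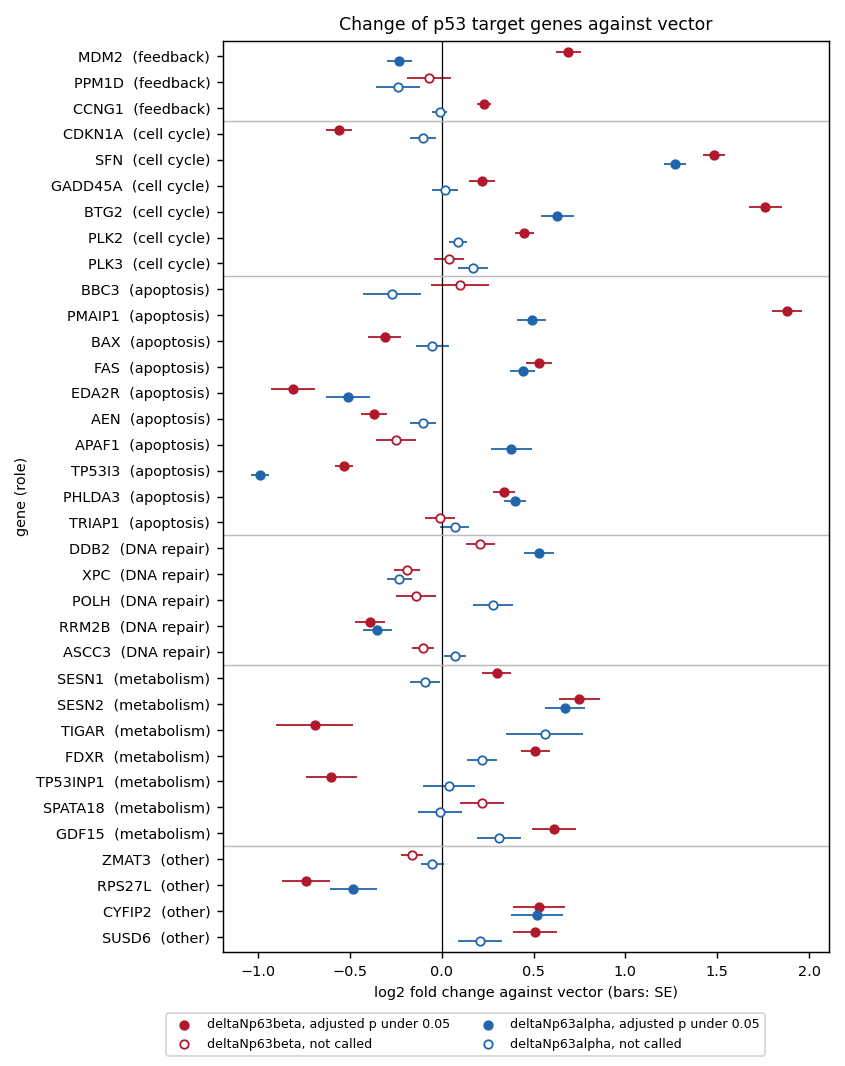
Log2 fold change of each p53 target gene against vector (x axis, bars are SE) for deltaNp63beta in red and deltaNp63alpha in blue. Filled points mark an adjusted p under 0.05. MDM2 is filled at 0.69 for deltaNp63beta and at -0.23 for deltaNp63alpha, on opposite sides of 0.

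Of the 3 genes that restrain p53, MDM2 and CCNG1 rose with deltaNp63beta and MDM2 fell with deltaNp63alpha. MDM2 (ENSG00000135679, chr12:68808176-68850686, plus strand, GRCh38), the ubiquitin ligase that marks p53 for degradation and is itself switched on by p53, was at 4616, 4326 and 4296 in the deltaNp63beta libraries, 2480, 2357 and 2130 in the deltaNp63alpha libraries and 2814, 2865 and 2508 in the vector libraries. The deltaNp63beta libraries were the highest, the deltaNp63alpha libraries the lowest, and no groups overlapped. MDM2 changed by 0.69 ± 0.07 with deltaNp63beta (adjusted p = 1.1e-05) and by -0.23 ± 0.07 with deltaNp63alpha (adjusted p = 0.0411). The fall with deltaNp63alpha was small and was lost without any 1 of 5 libraries: deltaNp63alpha replicate 2 (adjusted p = 0.082) or 3 (0.152), deltaNp63beta replicate 2 (0.0572), or vector replicate 1 (0.12) or 2 (0.142). It was also lost in a fit of those groups alone (adjusted p = 0.0568) and in a fit with neither the mean-variance trend nor robust moderation (0.113). MDM2 overlaps other annotated genes, CPM on the opposite strand among them, and 21 of the 35 members overlap another annotated gene. These overlaps were counted over whole gene spans, introns included, so they do not show that reads were shared. The use of strand in the counting is not given in the sources used here, and sharing of reads was not tested. CCNG1, cyclin G1, averaged 4648 ± 71 with deltaNp63beta and 3950 ± 68.1 with vector, a change of 0.23 ± 0.04 (adjusted p = 0.000463). With deltaNp63alpha CCNG1 averaged 3934 ± 77.8, and its change was -0.01 ± 0.04 (95% interval -0.09 to 0.08). PPM1D, the phosphatase WIP1 that removes activating phosphates from p53, averaged 383 ± 18.2, 343 ± 57.9 and 402 ± 23.4 with deltaNp63beta, deltaNp63alpha and vector and was not called with either isoform. Without deltaNp63alpha replicate 1, PPM1D was called lower with deltaNp63alpha (adjusted p = 0.0402).

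The genes of cell cycle arrest did not share a direction: SFN and BTG2 rose with both isoforms, while CDKN1A fell with deltaNp63beta. CDKN1A (ENSG00000124762, chr6:36676460-36687339, plus strand), which encodes the cyclin-dependent kinase inhibitor p21, was at 4173, 5081 and 4846 in the deltaNp63beta libraries, 6277, 6712 and 6346 in the deltaNp63alpha libraries and 7115, 6894 and 6652 in the vector libraries. The deltaNp63beta libraries were the lowest and apart from the rest, and those of deltaNp63alpha and vector overlapped. CDKN1A changed by -0.56 ± 0.07 with deltaNp63beta (adjusted p = 4.75e-05) and by -0.10 ± 0.07 with deltaNp63alpha (adjusted p = 0.394, 95% interval -0.24 to 0.05). SFN (ENSG00000175793, chr1:26863138-26864457, plus strand), stratifin, which holds cyclin B and its kinase in the cytoplasm, was at 21314, 21354 and 20542 in the deltaNp63beta libraries, 16589, 19976 and 18221 in the deltaNp63alpha libraries and 7715, 7163 and 7790 in the vector libraries. Every deltaNp63beta library lay above every deltaNp63alpha library, and these above every vector library. SFN rose by 1.48 ± 0.06 with deltaNp63beta (adjusted p = 1.01e-08) and by 1.27 ± 0.06 with deltaNp63alpha (adjusted p = 1.82e-07). BTG2 (ENSG00000159388, chr1:203305491-203309602, plus strand), an antiproliferative partner of the mRNA deadenylase complex, was at 1236, 1130 and 1272 in the deltaNp63beta libraries, 554, 616 and 497 in the deltaNp63alpha libraries and 365, 337 and 368 in the vector libraries. The order of the groups was the same as for SFN, again with no overlap. BTG2 rose by 1.76 ± 0.09 with deltaNp63beta (adjusted p = 5.96e-08) and by 0.63 ± 0.09 with deltaNp63alpha (adjusted p = 0.000712).

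PLK2, a stress-responsive polo-like kinase, was at 1921, 1964 and 1953 in the deltaNp63beta libraries, 1605, 1438 and 1525 in the deltaNp63alpha libraries and 1416, 1456 and 1414 in the vector libraries. The deltaNp63beta libraries stood above all others, and those of deltaNp63alpha and vector overlapped. PLK2 rose by 0.45 ± 0.05 with deltaNp63beta (adjusted p = 4.97e-05), and its change with deltaNp63alpha was 0.09 ± 0.05 (adjusted p = 0.314). GADD45A, a stress sensor that binds cell cycle kinases, averaged 1176 ± 91.5 with deltaNp63beta and 1006 ± 32.5 with vector, a rise of 0.22 ± 0.07 (adjusted p = 0.0258). Omitting deltaNp63beta replicate 1 (adjusted p = 0.0969), vector replicate 1 (0.0576) or vector replicate 2 (0.0826) ended that call, as did quantile normalization (0.0688) and scaling to equal totals (0.0546). GADD45A was not called with deltaNp63alpha (0.02 ± 0.07, 95% interval -0.14 to 0.18). PLK3, a second stress-responsive kinase of the polo-like family, was called with neither isoform, with changes of 0.04 ± 0.08 for deltaNp63beta and 0.17 ± 0.08 for deltaNp63alpha.

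The 10 apoptosis genes split in direction: 3 rose and 4 fell with deltaNp63beta, and 4 rose and 2 fell with deltaNp63alpha. Thus 7 of the 10 were called with deltaNp63beta, against 41.3% of all genes, and 6 with deltaNp63alpha, against 14.5%. PMAIP1 (ENSG00000141682, chr18:59899948-59904306, plus strand), the BH3-only protein NOXA that blocks MCL1, was at 837, 839.7 and 818 in the deltaNp63beta libraries, 307, 341 and 306 in the deltaNp63alpha libraries and 227, 227 and 223 in the vector libraries. The groups did not overlap, and each deltaNp63beta library was more than double any other. PMAIP1 rose by 1.88 ± 0.08 with deltaNp63beta (adjusted p = 1.67e-08) and by 0.49 ± 0.08 with deltaNp63alpha (adjusted p = 0.00197). BBC3, the BH3-only protein PUMA and a direct inducer of death downstream of p53, averaged 185 ± 36, 142 ± 20.8 and 170.4 ± 5.67 with deltaNp63beta, deltaNp63alpha and vector. BBC3 was not called with deltaNp63beta (0.10 ± 0.16, 95% interval -0.25 to 0.46) or with deltaNp63alpha (-0.27 ± 0.16, -0.62 to 0.09). BAX, the pore-forming protein of the mitochondrial outer membrane, averaged 1197 ± 130.1, 1432 ± 40 and 1483 ± 131 in the same groups. BAX changed by -0.31 ± 0.09 with deltaNp63beta (adjusted p = 0.0131), though the libraries overlapped and the call was lost without vector replicate 1 (adjusted p = 0.053), and by -0.05 ± 0.09 with deltaNp63alpha (adjusted p = 0.785). APAF1, the scaffold of the apoptosome, was at 454, 509.5 and 494 in the deltaNp63beta libraries, 679, 798 and 785 in the deltaNp63alpha libraries and 497, 588 and 654 in the vector libraries. The deltaNp63alpha libraries were the highest and apart, and those of deltaNp63beta and vector overlapped. APAF1 rose by 0.38 ± 0.11 with deltaNp63alpha (adjusted p = 0.0352), a call lost without deltaNp63alpha replicate 2 (0.118) or 3 (0.115) or vector replicate 1 (0.114) or 2 (0.0759). With deltaNp63beta it changed by -0.25 ± 0.11 (adjusted p = 0.0917), which became a call without vector replicate 1 (adjusted p = 0.0207).

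FAS and EDA2R, 2 cell-surface receptors of the list, went opposite ways. FAS, the receptor of the FAS ligand, averaged 1075 ± 22.8 with deltaNp63beta, 1012 ± 18 with deltaNp63alpha and 748 ± 77 with vector, and rose by 0.53 ± 0.07 (adjusted p = 0.000182) and 0.44 ± 0.07 (adjusted p = 0.00215) with the isoforms in that order. FAS overlaps ACTA2 on the opposite strand. EDA2R, the receptor of ectodysplasin A2, was at 169, 197 and 168 in the deltaNp63beta libraries, 239.6, 220.0 and 199 in the deltaNp63alpha libraries and 336, 308 and 295 in the vector libraries. Every vector library lay above every transgene library, and the isoforms did not overlap. EDA2R fell, with a change of -0.81 ± 0.12 with deltaNp63beta (adjusted p = 0.000238) and of -0.51 ± 0.12 with deltaNp63alpha (adjusted p = 0.0146), where the call was lost without deltaNp63alpha replicate 3 (adjusted p = 0.0626) or vector replicate 1 (0.0589). TP53I3 (ENSG00000115129, chr2:24077433-24085861, minus strand), the quinone reductase PIG3 linked to reactive oxygen species, was at 1453, 1577 and 1526 in the deltaNp63beta libraries, 1118, 1134 and 1049 in the deltaNp63alpha libraries and 2194, 2131 and 2238 in the vector libraries. The vector libraries were the highest, the deltaNp63alpha libraries the lowest and the deltaNp63beta libraries between them, without overlap. TP53I3 fell, with a change of -0.53 ± 0.05 with deltaNp63beta (adjusted p = 1.86e-05) and of -0.99 ± 0.05 with deltaNp63alpha (adjusted p = 5.46e-07), the largest fall among the 35 genes in that comparison. PHLDA3, an inhibitor of AKT at the membrane, rose by 0.34 ± 0.06 with deltaNp63beta (adjusted p = 0.000883) and by 0.40 ± 0.06 with deltaNp63alpha (adjusted p = 0.000916), with group means of 2662 ± 209, 2776 ± 15.8 and 2106 ± 82.2 for deltaNp63beta, deltaNp63alpha and vector. AEN, an exonuclease that promotes apoptosis, fell, with a change of -0.37 ± 0.07 with deltaNp63beta (adjusted p = 0.0012) and changed by -0.10 ± 0.07 with deltaNp63alpha (adjusted p = 0.391). TRIAP1, a small mitochondrial protein that opposes apoptosis, was not called with deltaNp63beta (-0.01 ± 0.08) or deltaNp63alpha (0.07 ± 0.08).

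**Figure D3:**
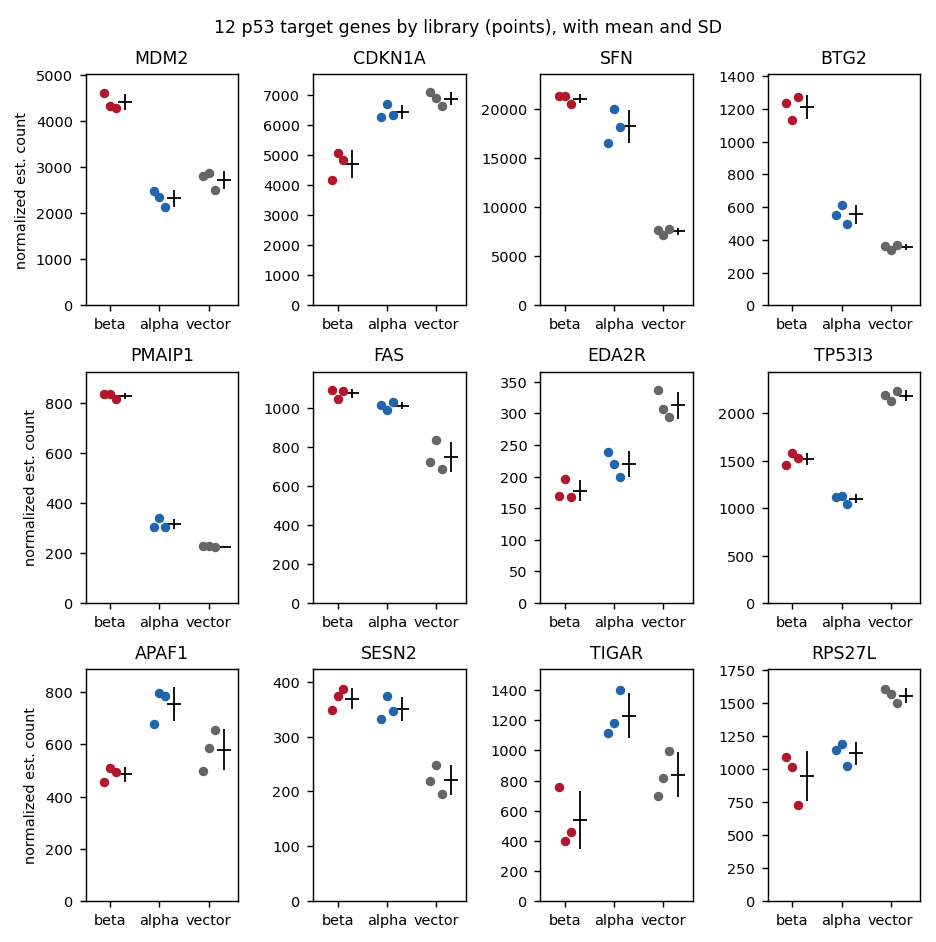
Normalized estimated counts (y axes, from 0) of 12 p53 target genes in the 3 deltaNp63beta, 3 deltaNp63alpha and 3 vector libraries, with mean and SD beside the points. PMAIP1 and BTG2 lie highest with deltaNp63beta, SFN and SESN2 lie above vector with both isoforms, and TP53I3, EDA2R and RPS27L lie below vector with both.

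Of the 5 genes of DNA repair and nucleotide supply, 1 fell with deltaNp63beta (20.0% called, against 41.3% of all genes), and 1 rose and 1 fell with deltaNp63alpha (40.0%, against 14.5%). DDB2, the damage-recognition subunit for ultraviolet lesions, was at 737, 683 and 776 in the deltaNp63beta libraries, 975, 905 and 863 in the deltaNp63alpha libraries and 586, 694 and 616 in the vector libraries. The deltaNp63alpha libraries were apart and the highest, and those of deltaNp63beta and vector overlapped. DDB2 rose by 0.53 ± 0.08 with deltaNp63alpha (adjusted p = 0.00143), and its change with deltaNp63beta was 0.21 ± 0.08 (adjusted p = 0.0653; called without vector replicate 2, adjusted p = 0.0274). RRM2B, the p53-inducible subunit of ribonucleotide reductase, was at 3066, 2980 and 3160 in the deltaNp63beta libraries, 3611, 2833 and 3046 in the deltaNp63alpha libraries and 3791, 4070 and 4206 in the vector libraries. All vector libraries lay above all transgene libraries, and the isoforms overlapped. RRM2B fell, with a change of -0.39 ± 0.08 with deltaNp63beta (adjusted p = 0.00206) and of -0.35 ± 0.08 with deltaNp63alpha (adjusted p = 0.011). POLH, the translesion DNA polymerase eta, was at 1170, 1273 and 1141 in the deltaNp63beta libraries, 1484, 1785 and 1533 in the deltaNp63alpha libraries and 1210, 1598 and 1176 in the vector libraries. The vector libraries spread over the range of both isoforms, whose own libraries did not overlap. POLH was not called with deltaNp63beta (-0.14 ± 0.11) or deltaNp63alpha (0.28 ± 0.11, adjusted p = 0.133; without vector replicate 2, 0.0126). XPC, which recognises distorted DNA, changed by -0.19 ± 0.07 (adjusted p = 0.0551) and -0.23 ± 0.07 (adjusted p = 0.0576) with deltaNp63beta and deltaNp63alpha, which stood just outside the threshold. The XPC change with deltaNp63beta was called without deltaNp63alpha replicate 1 (adjusted p = 0.0303) or 3 (0.0474), and that with deltaNp63alpha without deltaNp63alpha replicate 1 (0.0188) or deltaNp63beta replicate 1 (0.0484). ASCC3, a helicase of alkylation repair, was not called with either isoform (-0.10 ± 0.06 with deltaNp63beta and 0.07 ± 0.06 with deltaNp63alpha), though without vector replicate 1 it was called lower with deltaNp63beta (0.0436).

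Of the 7 genes of metabolism, redox control, autophagy and secreted stress signals, 4 rose and 2 fell with deltaNp63beta, and 1 rose with deltaNp63alpha. The shares called were 85.7% with deltaNp63beta, against 41.3% of all genes, and 14.3% with deltaNp63alpha, close to the 14.5% of all genes. SESN2, a sestrin that restrains mTORC1, was at 348, 374 and 386 in the deltaNp63beta libraries, 331, 374 and 347 in the deltaNp63alpha libraries and 219, 248 and 194 in the vector libraries. The vector libraries were the lowest and apart, and the isoforms overlapped. SESN2 rose by 0.75 ± 0.11 with deltaNp63beta (adjusted p = 0.000275) and by 0.67 ± 0.11 with deltaNp63alpha (adjusted p = 0.0019). Its relative SESN1 was at 693, 634 and 680.0 in the deltaNp63beta libraries, 540.1, 508 and 481 in the deltaNp63alpha libraries and 548, 555 and 525 in the vector libraries. The deltaNp63beta libraries were above all others, and those of deltaNp63alpha and vector overlapped. SESN1 rose by 0.30 ± 0.08 with deltaNp63beta (adjusted p = 0.00807) and changed by -0.09 ± 0.08 with deltaNp63alpha (adjusted p = 0.49). GDF15, a secreted stress cytokine, was at 478, 583 and 578 in the deltaNp63beta libraries, 449, 433 and 449 in the deltaNp63alpha libraries and 406, 369.8 and 303 in the vector libraries. The groups followed the order deltaNp63beta, deltaNp63alpha, vector without overlap. GDF15 rose by 0.61 ± 0.12 with deltaNp63beta (adjusted p = 0.0017), and its change with deltaNp63alpha, 0.31 ± 0.12, was not called (adjusted p = 0.109). FDXR, the mitochondrial ferredoxin reductase, averaged 634 ± 19.1, 518 ± 34.6 and 444 ± 24.1 with deltaNp63beta, deltaNp63alpha and vector, a rise of 0.51 ± 0.08 with deltaNp63beta (adjusted p = 0.000382) and a change of 0.22 ± 0.08 with deltaNp63alpha (adjusted p = 0.0969).

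TIGAR (ENSG00000078237, chr12:4307763-4354593, plus strand), a phosphatase that lowers glycolytic flux, was at 755, 395 and 456 in the deltaNp63beta libraries, 1115, 1181 and 1399 in the deltaNp63alpha libraries and 698, 818 and 997 in the vector libraries. All deltaNp63alpha libraries lay above the rest, and deltaNp63beta replicate 1 lay within the vector range. TIGAR changed by -0.69 ± 0.21 with deltaNp63beta (adjusted p = 0.0237) and by 0.56 ± 0.21 with deltaNp63alpha (adjusted p = 0.11, 95% interval 0.10 to 1.03). Omitting deltaNp63beta replicate 2 (adjusted p = 0.0878) or 3 (0.0866) or vector replicate 2 (0.0593) or 3 (0.0889) ended the call of a fall of TIGAR with deltaNp63beta, and without deltaNp63beta replicate 1 its difference between deltaNp63alpha and vector was called (0.0164). Its coefficient of variation among the deltaNp63beta libraries, 36.0%, was the highest of the 35 genes in any group, where the median was 5.8% for deltaNp63beta. TP53INP1, a promoter of autophagy and cell death, was at 129, 133 and 155 in the deltaNp63beta libraries, 189, 217 and 253 in the deltaNp63alpha libraries and 216, 223 and 196 in the vector libraries. The deltaNp63beta libraries were the lowest and apart, and those of deltaNp63alpha and vector overlapped. TP53INP1 fell, with a change of -0.60 ± 0.14 with deltaNp63beta (adjusted p = 0.00471) and changed by 0.04 ± 0.14 with deltaNp63alpha (adjusted p = 0.884). SPATA18, which acts in mitochondrial quality control, was not called with deltaNp63beta (0.22 ± 0.12, adjusted p = 0.163) or deltaNp63alpha (-0.01 ± 0.12).

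Of the remaining 4 genes, RPS27L fell and CYFIP2 rose with both isoforms, against the shared vector libraries. RPS27L, a ribosomal protein S27-like protein whose reads can be shared with its close relative RPS27, was at 1089, 1017 and 729 in the deltaNp63beta libraries, 1144, 1186 and 1019 in the deltaNp63alpha libraries and 1603, 1566 and 1496 in the vector libraries. The vector libraries were the highest and apart, and the isoforms overlapped. RPS27L fell, with a change of -0.74 ± 0.13 with deltaNp63beta (adjusted p = 0.000693) and of -0.48 ± 0.13 with deltaNp63alpha (adjusted p = 0.0257). The deltaNp63alpha call was lost without deltaNp63alpha replicate 1 (adjusted p = 0.0574) or 3 (0.096), or vector replicate 1 (0.0751), 2 (0.0723) or 3 (0.0546). CYFIP2, a subunit of the WAVE complex of actin control, was at 674, 721 and 828 in the deltaNp63beta libraries, 737, 792 and 677 in the deltaNp63alpha libraries and 647, 501 and 413 in the vector libraries. All transgene libraries lay above all vector libraries. CYFIP2 rose by 0.53 ± 0.14 with deltaNp63beta (adjusted p = 0.0121) and by 0.52 ± 0.14 with deltaNp63alpha (adjusted p = 0.0332). The deltaNp63alpha call of CYFIP2 was lost without deltaNp63alpha replicate 1 (0.0832), 2 (0.113) or 3 (0.051), vector replicate 2 (0.0905) or 3 (0.108). SUSD6, a membrane protein, rose by 0.51 ± 0.12 with deltaNp63beta (adjusted p = 0.00424) and changed by 0.21 ± 0.12 with deltaNp63alpha (adjusted p = 0.276). ZMAT3, an RNA-binding zinc finger protein, was not called with deltaNp63beta (-0.16 ± 0.06, adjusted p = 0.0655) or deltaNp63alpha (-0.05 ± 0.06), but was called lower with deltaNp63beta without deltaNp63alpha replicate 2 (0.0427).

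Set directly against each other, deltaNp63beta gave higher RNA than deltaNp63alpha for 10 of the 35 genes and lower RNA for 8, so 51.4% were called, against 32.9% of all genes (17.4% higher and 15.5% lower) and 39.1% of genes within the members' range of levels (21.3% higher and 17.9% lower). After quantile normalization the split was 8 higher and 10 lower. PMAIP1 differed most upward, by 1.39 ± 0.08 (adjusted p = 3.99e-07), followed by BTG2 at 1.13 ± 0.09 (adjusted p = 4.33e-06) and MDM2 at 0.93 ± 0.07 (adjusted p = 2e-06). TP53I3 was higher by 0.46 ± 0.05 (adjusted p = 8.33e-05), SESN1 by 0.39 ± 0.08 (adjusted p = 0.00224), PLK2 by 0.36 ± 0.05 (adjusted p = 0.000416) and CCNG1 by 0.24 ± 0.04 (adjusted p = 0.000576). The downward differences were led by TIGAR at -1.25 ± 0.21 (adjusted p = 0.00109), TP53INP1 at -0.65 ± 0.14 (adjusted p = 0.00415) and APAF1 at -0.63 ± 0.11 (adjusted p = 0.00103). CDKN1A was lower, at -0.46 ± 0.07 (adjusted p = 0.00031) and AEN at -0.27 ± 0.07 (adjusted p = 0.0109). Thus with deltaNp63beta the RNA of MDM2, itself a p53 target, was higher and that of p21 lower than with deltaNp63alpha. The other p53 targets called in this comparison also went both ways, such as PMAIP1 upward and TIGAR downward.

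The other 6 calls between the isoforms depended on single libraries. POLH was lower, at -0.42 ± 0.11 (adjusted p = 0.0146; without deltaNp63alpha replicate 2, 0.0625) and DDB2 at -0.32 ± 0.08 (adjusted p = 0.0134; without deltaNp63alpha replicate 1, 0.0528, or deltaNp63beta replicate 2, 0.0547). BAX was lower, at -0.26 ± 0.09 (adjusted p = 0.0357), which was lost without deltaNp63alpha replicate 1 (0.0562), 2 (0.0993) or 3 (0.0866) or deltaNp63beta replicate 1 (0.12) or 3 (0.0784). SFN was higher by 0.21 ± 0.06 (adjusted p = 0.0202), which was lost without deltaNp63alpha replicate 1 (0.0661) or 3 (0.0544) or deltaNp63beta replicate 2 (0.0625). FDXR was higher by 0.29 ± 0.08 (adjusted p = 0.0164; without deltaNp63alpha replicate 2, 0.0512, or 3, 0.0668). GADD45A was higher by 0.20 ± 0.07 (adjusted p = 0.0477), which was lost without any of 7 libraries, with adjusted p of 0.0576 to 0.164: deltaNp63beta replicates 1 and 2, deltaNp63alpha replicates 1 and 3, and each vector replicate. Among genes that had changed with both isoforms, several showed no called difference between them. The 95% interval of the difference, not adjusted for the number of genes, was -0.08 to 0.25 for FAS, -0.17 to 0.32 for SESN2, -0.19 to 0.07 for PHLDA3, -0.21 to 0.14 for RRM2B, -0.31 to 0.33 for CYFIP2, -0.57 to -0.04 for EDA2R and -0.54 to 0.02 for RPS27L. EDA2R, whose interval lies below 0, had an adjusted p of 0.074, and after quantile normalization 0.0417. RPS27L was called lower without deltaNp63beta replicate 1 (0.045), and PPM1D higher without deltaNp63alpha replicate 1 (0.0481). GDF15, at 0.29 ± 0.12, was called without deltaNp63beta replicate 1 (0.0356) or vector replicate 3 (0.0441), and SUSD6, at 0.30 ± 0.12, without vector replicate 1 (0.0417). ASCC3, at -0.17 ± 0.06 (adjusted p = 0.0531), was called lower without deltaNp63alpha replicate 2 (0.0313) or vector replicate 1 (0.0258).

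**Figure D4:**
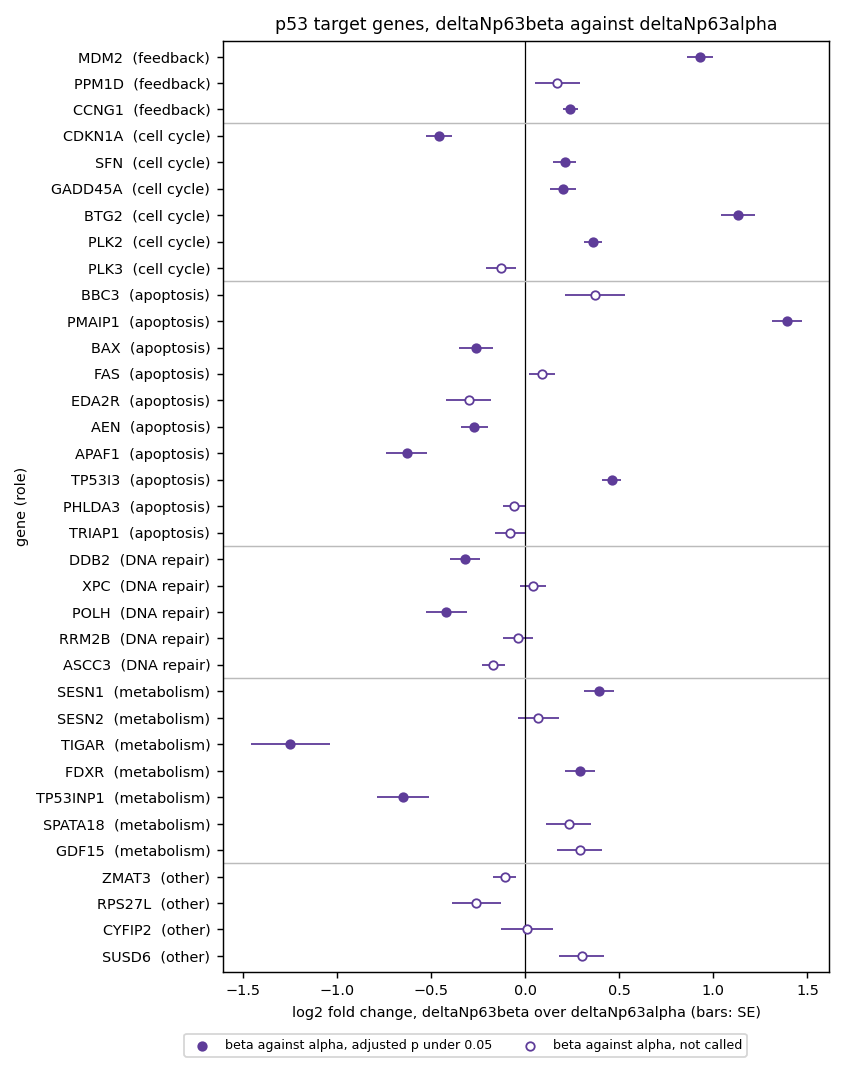
Log2 fold change of each p53 target gene in deltaNp63beta over deltaNp63alpha libraries (x axis, bars are SE), with filled points at an adjusted p under 0.05. PMAIP1, BTG2 and MDM2 lie farthest to the right and TIGAR farthest to the left.

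Of the 9 genes with a response element match printed above, 6 rose with deltaNp63beta (MDM2, PMAIP1, FAS, FDXR, SESN1 and GDF15), 2 fell (AEN and RPS27L) and DDB2 was not called. Of the 21 genes with a window and no match, 7 rose and 5 fell, and of all genes tested 21.8% rose and 19.5% fell. With deltaNp63alpha, 3 of the 9 rose (PMAIP1, FAS and DDB2) and 2 fell (MDM2 and RPS27L), and 5 of the 21 rose and 2 fell, against 8.13% and 6.37% of all genes. These are counts only, and elements outside the windows were not searched. Both falls counted with deltaNp63alpha, MDM2 and RPS27L, were calls that depended on single libraries, as given above. Restricting the search to the 250 bases before the start left a match in 7 of the 30 genes (23.3%), against 1.12% of all genes in the table.

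TP73, which encodes the p53 relative p73, was called in each of the 3 comparisons. It was at 441, 308 and 319 in the deltaNp63beta libraries, 14.8, 28.9 and 19 in the deltaNp63alpha libraries and 42.8, 45.2 and 41.5 in the vector libraries, with the deltaNp63beta libraries far above and the deltaNp63alpha libraries below vector, without overlap. TP73 rose by 3.0 ± 0.25 with deltaNp63beta (adjusted p = 3.08e-06) and fell, with a change of -1.06 ± 0.25 with deltaNp63alpha (adjusted p = 0.015), though in a fit of deltaNp63alpha and vector alone the fall had an adjusted p of 0.0524.

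**Figure D5:**
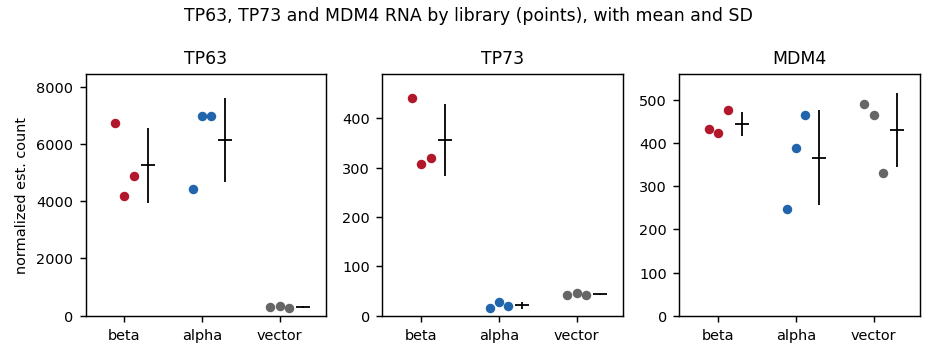
Normalized estimated counts (y axes, from 0) of TP63, TP73 and MDM4 in the 3 deltaNp63beta, 3 deltaNp63alpha and 3 vector libraries, with mean and SD beside the points. TP73 lies highest in the deltaNp63beta libraries, and MDM4, a relative of MDM2, overlaps between the groups.

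Of 24 tested regulators and cofactors of p53, 4 rose and 7 fell with deltaNp63beta, and 0 rose and 6 fell with deltaNp63alpha, with medians of -0.05 and -0.12. That is 45.8% called with deltaNp63beta, close to the 41.3% of all genes, and 6 of 24 with deltaNp63alpha, against 14.5% of all genes. At an unadjusted p under 0.05 by limma, 2 rose and 10 fell with deltaNp63alpha. The share of all genes at that unadjusted threshold is not given here, so no conclusion is drawn from these 2 counts. HIPK2, a kinase that phosphorylates p53, fell, with a change of -0.56 ± 0.05 with deltaNp63beta (adjusted p = 1.06e-05) and of -0.61 ± 0.05 with deltaNp63alpha (adjusted p = 1.93e-05). SETD7, a methyltransferase that acts on p53, fell, with a change of -0.33 ± 0.04 (adjusted p = 5.95e-05) and -0.25 ± 0.04 (adjusted p = 0.00179) in the same comparisons. TP53BP1, a damage-response adaptor, fell, with a change of -0.64 ± 0.07 with deltaNp63beta (adjusted p = 2.29e-05). Its change with deltaNp63alpha was -0.24 ± 0.07 (adjusted p = 0.0416), a call lost without any 1 deltaNp63alpha library or vector replicate 2 or 3. CREBBP, the acetyltransferase CBP, changed by -0.55 ± 0.13 with deltaNp63beta (adjusted p = 0.00602) and by -0.52 ± 0.13 with deltaNp63alpha (adjusted p = 0.0224). The deltaNp63alpha call of CREBBP was lost without deltaNp63alpha replicate 1 (0.06) or 2 (0.0828) or vector replicate 1 (0.051). Without deltaNp63alpha replicate 2, 3 regulators fell with deltaNp63alpha, and without deltaNp63alpha replicate 1, 1 rose. Between the isoforms, 3 regulators were higher and 4 lower with deltaNp63beta (29.2% called, against 32.9% of all genes; 2 lower without deltaNp63alpha replicate 2 or 3 or deltaNp63beta replicate 3), including SIRT1, a deacetylase of p53, at -0.30 ± 0.08 (adjusted p = 0.0116).

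A further list of 38 tested p53 targets held more rises than falls: 20 rose and 6 fell with deltaNp63beta (median 0.35), 15 rose and 3 fell with deltaNp63alpha (median 0.20), and 12 were higher and 7 lower with deltaNp63beta than with deltaNp63alpha (median 0.10). The shares called were 68.4%, 47.4% and, between the isoforms, 19 of 38, against 41.3%, 14.5% and 32.9% of all genes. Those of all genes were 21.8% higher and 19.5% lower, 8.13% and 6.37%, and 17.4% and 15.5% in these comparisons. PERP, a desmosomal protein that is also a p63 target, rose by 1.77 ± 0.03 with deltaNp63beta (adjusted p = 3.5e-11) and by 0.73 ± 0.03 with deltaNp63alpha (adjusted p = 1.68e-07), and differed between them by 1.05 ± 0.03 (adjusted p = 4.84e-09). CD82, a tetraspanin, rose by 2.06 ± 0.09 with deltaNp63beta (adjusted p = 1.23e-08), and HSPA4L, a chaperone, by 1.20 ± 0.06 (adjusted p = 3.65e-08). With deltaNp63alpha, ABCA12, a lipid transporter, rose by 1.04 ± 0.08 (adjusted p = 4.21e-06), DCP1B, a decapping factor, by 1.24 ± 0.10 (adjusted p = 6.61e-06) and TGFA, an EGF receptor ligand, by 0.93 ± 0.09 (adjusted p = 2.53e-05). All of these genes were called higher with both isoforms. ABCA12, DCP1B and TGFA rose by 1.13 ± 0.08, 1.59 ± 0.10 and 0.52 ± 0.09 with deltaNp63beta. CD82 and HSPA4L rose by 0.78 ± 0.09 and 0.39 ± 0.06 with deltaNp63alpha. The 3 falls with deltaNp63alpha were 1 without deltaNp63alpha replicate 3, vector replicate 2 or vector replicate 3.

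Of 20 genes known to be repressed downstream of p21, mostly mitotic and S phase genes, 10 rose and 1 fell with deltaNp63beta (median 0.15). With deltaNp63alpha 3 rose and 0 fell (median 0.10), and at an unadjusted p under 0.05 by limma 10 rose and 0 fell. No share of all genes at that unadjusted threshold is given here, so no conclusion is drawn from the unadjusted counts. The shares called were 55.0% with deltaNp63beta, against 41.3% of all genes, and 15.0% with deltaNp63alpha, close to the 14.5% of all genes. Any part of the level of CDKN1A in these changes was not tested. With deltaNp63beta, CCNA2, cyclin A2, rose by 0.40 ± 0.04 (adjusted p = 8.14e-06), BUB1, a checkpoint kinase, by 0.40 ± 0.06 (adjusted p = 0.000178), CCNB1, cyclin B1, by 0.26 ± 0.04 (adjusted p = 0.000273) and CCNB2, cyclin B2, by 0.38 ± 0.06 (adjusted p = 0.000273). The single fall, FOXM1, a mitotic transcription factor named after its value was seen, was -0.23 ± 0.05 (adjusted p = 0.00245), and the count of falls became 5 after scaling to equal totals, 3 after quantile normalization and 2 without deltaNp63beta replicate 1 or 3. With deltaNp63alpha the 3 rises were CCNB1 at 0.17 ± 0.04 (adjusted p = 0.0109), AURKA, the Aurora A kinase, at 0.18 ± 0.04 (adjusted p = 0.0157) and CCNA2 at 0.14 ± 0.04 (adjusted p = 0.0312). The CCNA2 call was lost without any 1 of the deltaNp63alpha or vector libraries (adjusted p = 0.0555 to 0.1), that of AURKA without deltaNp63alpha replicate 2 (0.0579) or vector replicate 1 (0.0631), and without vector replicate 1 a single rise was called.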

How the data were processed

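Poly(A) RNA of 9 libraries was measured by sequencing. Per the submitters' processing notes the authors used kallisto 0.46.2, GRCh38 and DESeq2. The step that made the deposited signal, normalized estimated counts per gene, is not given in the sources used here. Whole reads were not recovered: 59.9% to 63.5% of values up to 20 steps were whole within 0.1 step, so count tests were not run and no counting interval is given. Of the 41857 IDs, 36387 matched a symbol. Positions came from GENCODE 29. Genes reaching 10 in 3 or more libraries were fitted in limma 3.58.1 (R 4.3.3) on log2(value + 1), with trend and robust moderation, all 9 libraries and 1 coefficient per group. A Benjamini-Hochberg adjusted p under 0.05 counted as a call. The pseudocount of 1 shrinks changes of low genes. A run of the fit on simulated data was made, and its outcome is not reported here. Tables and figures were made in Python 3.11.15 with numpy 2.4.6, matplotlib 3.10.9 and pandas 2.3.3. Replicates are labelled biological, with no culture or batch given, so p-values measure the spread between these libraries.

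Values per library are given for CDKN1A, MDM2 and, per comparison, up to 6 called members with the largest rise and up to 6 with the largest fall, and of other lists up to 4 called genes by smallest adjusted p, with TP63 and TP73. Some genes that this rule picks are not reported here. The members, lists and tests were chosen with earlier results of these data known. Alternatives were median-of-ratios, quantile and equal-total scaling, filters at 1 and 50, a pseudocount of 0.1, the 2 groups alone, a replicate block, a test against 1.5-fold, a fit with neither trend nor robust moderation, and each library left out. Running them on the lists of other genes was added after seeing the data.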

Additional observations from a re-analysis of the deposited data

Results flagged for a closer look

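MDM2 was flagged because it alone of the 35 genes was called in all 3 comparisons with opposite directions against vector. The flag therefore rests on the call with deltaNp63alpha (limma, adjusted p = 0.0411). It changed by 0.69 ± 0.07 (log2 fold change ± SE) with deltaNp63beta and by -0.23 ± 0.07 with deltaNp63alpha, each against vector, and the difference of deltaNp63beta minus deltaNp63alpha was 0.93 (limma, adjusted p = 2e-06). All 3 deltaNp63beta libraries lay above, and all 3 deltaNp63alpha libraries below, the vector libraries. The fall with deltaNp63alpha, though not the rise with deltaNp63beta, was lost without 1 of 5 libraries.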

How the results depend on the processing

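No p53 target gene changed direction in a comparison where it was called. Leaving out 1 library at a time gave 14 to 15 members higher and 8 to 10 lower for deltaNp63beta against vector, 7 to 10 and 2 to 6 for deltaNp63alpha against vector, and 7 to 10 and 6 to 9 for deltaNp63beta against deltaNp63alpha. The 5 members lower with deltaNp63alpha became 2 without deltaNp63alpha replicate 3 or vector replicate 1, 3 without vector replicate 2, and 2 in a fit with neither the mean-variance trend nor robust moderation. Over all genes the same omissions gave 2813 to 3268 higher and 2437 to 2872 lower, 920 to 1239 and 640 to 1022, and 2067 to 2546 and 1800 to 2270, against 3293 and 2953, 1229 and 963, and 2625 and 2340 with all libraries. The low of 640 was without vector replicate 3, and 641 were called without vector replicate 2. Tested against a 1.5-fold change, 3 members were higher and 0 lower with deltaNp63beta (516 and 387 of all genes), 1 and 1 with deltaNp63alpha (134 and 47), and 3 and 0 between the isoforms (231 and 187). The labels' replicate numbers showed no pairing: after removing group means, same-numbered libraries correlated at -0.12 to 0.08 and differently numbered ones at -0.14 to 0.12. With a replicate block 15 members were higher and 10 lower for deltaNp63beta, 9 and 5 for deltaNp63alpha, and 9 and 8 between the isoforms. The block ended the calls of CYFIP2 with deltaNp63alpha (adjusted p = 0.0558) and of GADD45A (0.0786) and BAX (0.0608) between the isoforms, and added POLH with deltaNp63alpha (0.0323), APAF1 with deltaNp63beta (0.0382) and ASCC3 between the isoforms (0.0474). It changed no other call among the 35 genes. Scaling to equal totals gave 14 and 11, 9 and 6, and 9 and 9. The fit with neither the mean-variance trend nor robust moderation changed both choices at once. With deltaNp63alpha it lost the calls of MDM2 (adjusted p = 0.113), APAF1 (0.0763), RRM2B (0.0538), RPS27L (0.0846) and CYFIP2 (0.0932). It also lost those of TIGAR (0.0654) with deltaNp63beta, and of SFN (0.0763), GADD45A (0.0737) and BAX (0.0797) between the isoforms. The causes were not tested. The edgeR and DESeq2 fits on counts were not run, since the files hold none. The median SE over all genes was 0.109 (log2) with 3 libraries per group, so detection of small changes depended on the gene's own spread, and a gene that missed the threshold is not shown to be unchanged.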

Other observations

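The spread between replicates was uneven among the p53 target genes. The median coefficient of variation was 5.8% in deltaNp63beta, 6.7% in deltaNp63alpha and 5.4% in vector libraries. The gene with the highest value was TIGAR with deltaNp63beta (36.0%), PPM1D with deltaNp63alpha (16.9%) and CYFIP2 with vector (22.7%). CDKN2A, whose product ARF restrains MDM2 and which is known to be deleted in MCF10A, was between 0 and 8.24 normalized estimated counts over the 9 libraries and was not tested. MDM4 averaged 445 ± 28.1 with deltaNp63beta, 366 ± 110.0 with deltaNp63alpha and 429 ± 85.6 with vector (SD, n = 3) and was called in none of the 3 comparisons by limma (adjusted p = 0.817 for deltaNp63beta and 0.492 for deltaNp63alpha against vector, and 0.266 between the isoforms).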
